A study of Mus musculus with 6 samples.

Results

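The circadian clock is a transcription loop that most mammalian cells carry, and 10 of its core genes were examined on microarrays of sorted mouse mammary cells that lacked or kept the transcription factor gene Sox9. The genes were chosen by name as activators (Clock and Arntl), repressors (Per1, Per2, Per3, Cry1, Cry2, Nr1d1 and Nr1d2) and an output (Dbp). The only measured value in the rule was the mean over the 6 arrays, which picked the brightest probe set of a gene with several, and each of the 10 genes had 1 probe set. They are 10 of 19505 genes that could be named on the array. Because they were proposed with results of these arrays in view, the p values given for them describe the fit and are not independent evidence.

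The Sox9 KO group (Sox9-cKO) held 3 arrays from females with both Sox9 alleles floxed and the MMTV-iCre transgene. The WT group held 3 arrays from females with the same floxed alleles and no Cre. All mice were young adults in diestrus, on a mixed C57BL/6J x FVB/NJ background, and each animal was sorted separately. The cells were ER- luminal cells, isolated by a gate that kept EpCAM-high, CD49f-low cells negative for Sca1 and for markers of other lineages. Sox9 KO cells were sorted on ECFP as well, the Cre reporter that the transgene carries, so differences due to Sox9 deletion, to Cre or to this extra gate cannot be told apart. The MMTV promoter acts in only part of the epithelium. The hour of collection, which sets the level of most clock genes in an animal, is not given in the sources used here, so a difference in it between the genotypes was not tested.

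In the core loop, CLOCK and BMAL1 (the protein of Arntl) bind E-box sequences as a pair and switch on the Per, Cry, Nr1d1, Nr1d2 and Dbp genes. PER and CRY proteins accumulate and block this pair, which closes the loop. The REV-ERB proteins, made by Nr1d1 and Nr1d2, repress Arntl through sites that they share with the activating ROR receptors. DBP passes the rhythm on through D-box sequences. Rodent mammary tissue is known to carry such a clock.

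The promoters of 9 of the 10 genes were in the RefSeq table of mouse promoters (GRCm38.p6), and Per2 was not matched. Each window ran from 250 bases before a transcription start to 50 bases after it, and the 9 genes had 13 windows. An E-box spelled CACGTG was found in the Cry1 window and in 1 window of Per1, and in 7.15% of all 32851 windows. The REV-ERB and ROR core AGGTCA was found in 1 window each of Clock, Arntl, Per1 and Nr1d2, and in 16.3% of all windows. The D-box TTANGTAA was found in the Per3 window only among these genes, at 2 places, and in 2.32% of all windows. The cyclic AMP response element TGACGTCA was in none of the 13 windows and in 1.79% of all. Both strands were searched, the motifs did not overlap, and a match is a description of the letters and not a binding site.

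The 250 bases before the start are given for both REV-ERB genes, whose groups did not overlap, and for Cry1 and Per3, which carried an E-box and the D-boxes. Capitals mark a motif. The Nr1d1 window lies at chr11:98775378-98775627, that of Nr1d2 at chr14:18239107-18239356, that of Cry1 at chr10:85185055-85185304 and that of Per3 at chr4:151044666-151044915, all on the minus strand of GRCm38.p6 and printed 5′ to 3′ along the gene.
Nr1d1: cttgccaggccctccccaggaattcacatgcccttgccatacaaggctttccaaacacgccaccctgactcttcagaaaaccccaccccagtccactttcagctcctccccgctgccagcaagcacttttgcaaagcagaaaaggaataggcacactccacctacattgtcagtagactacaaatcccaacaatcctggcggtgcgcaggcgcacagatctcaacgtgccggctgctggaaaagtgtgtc
Nr1d2: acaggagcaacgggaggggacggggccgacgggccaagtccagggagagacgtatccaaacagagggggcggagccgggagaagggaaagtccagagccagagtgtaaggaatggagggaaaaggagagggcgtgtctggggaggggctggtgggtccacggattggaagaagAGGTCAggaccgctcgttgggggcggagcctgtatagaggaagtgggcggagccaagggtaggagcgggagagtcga
Cry1: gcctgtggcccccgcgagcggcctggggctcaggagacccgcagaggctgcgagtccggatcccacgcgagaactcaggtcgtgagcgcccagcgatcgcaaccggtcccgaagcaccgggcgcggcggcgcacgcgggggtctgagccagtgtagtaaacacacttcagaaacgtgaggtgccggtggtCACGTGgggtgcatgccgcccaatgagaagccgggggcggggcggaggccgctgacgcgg
Per3: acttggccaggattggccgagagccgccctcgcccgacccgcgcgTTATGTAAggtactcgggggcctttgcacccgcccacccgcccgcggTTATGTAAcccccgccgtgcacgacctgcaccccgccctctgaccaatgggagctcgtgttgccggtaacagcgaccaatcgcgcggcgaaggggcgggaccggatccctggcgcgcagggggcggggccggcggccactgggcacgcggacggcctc
Nr1d1 shows none of the 4 motifs in this stretch. Nr1d2 has the AGGTCA core 77 bases before the start, Cry1 has the E-box 60 bases before it, and Per3 has D-boxes 205 and 158 bases before it.

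The arrays reported a log2 signal for each gene, in which a difference of 1 is 2-fold. Array medians lay between 6.12 and 6.21. No detection calls were used here, so brightness was judged against 5222 negative controls. Their 95th percentile was 7.75 to 8.58, depending on the array. This bar is strict, since 20.8% to 29.6% of tested probe sets lay above it. Sox9 was at 6.73, 7.84 and 7.51 in Sox9 KO cells, against 11.60, 11.54 and 11.47 in WT cells. All 3 Sox9 KO values lay below that percentile on their arrays, so Sox9 fell by at least 11.6-fold in Sox9 KO cells (limma adjusted p = 0.00867). The luminal keratin Krt8 was bright, at 12.68 to 12.82 in Sox9 KO cells and 12.85 to 13.07 in WT cells, and Esr1, which encodes the estrogen receptor, lay below that percentile on all 6 arrays. Sox9 KO replicate 1 stood apart, with a score of -57.4 on the first principal component (41.5% of the variance) and -15.1 to 27.1 for the others. Results on the clock genes are therefore also given without it.

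Nearly all core clock genes had a lower mean signal in Sox9 KO cells. The mean was lower for 9 genes and higher for Dbp, and the median difference was -0.41 on the log2 scale, against 0.01 over all probe sets tested. Per2 was 2.03-fold lower. Nr1d1 and Nr1d2 were below the negative control percentile on all Sox9 KO arrays, so their fitted differences of -1.89 and -0.90 are not exact sizes. None of the 10 genes passed an adjusted p of 0.05 in limma, where the smallest was 0.199 for Per2 and 0.00901% of all probe sets passed. At an unadjusted p under 0.05, 5 genes were lower (Per2, Nr1d2, Nr1d1, Clock and Arntl) and 0 were higher. Over all probe sets, 9.26% reached this p, 4.99% lower and 4.28% higher. The groups did not overlap for Per2, Nr1d1, Nr1d2 and Clock, all lower, and for none that was higher. Over all probe sets, 7.3% did not overlap in the lower direction and 6.85% in the higher. With each array centred on its median, the share of lower probe sets among those at p under 0.05 was 66.4% in place of 53.8%, and the same 5 clock genes stayed under it. In that setting 2128 of all 22206 probe sets were under it. Without Sox9 KO replicate 1, 7 of the 10 genes had a lower mean and 3 a higher one, the median was -0.34, and 4 of the 5 were under the unadjusted 0.05 (Arntl was not). There, 1784 of all 22206 probe sets were under it. In RNA from a sorted population, fewer cells that express a gene and less RNA per cell cannot be told apart.

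**Figure D1:**
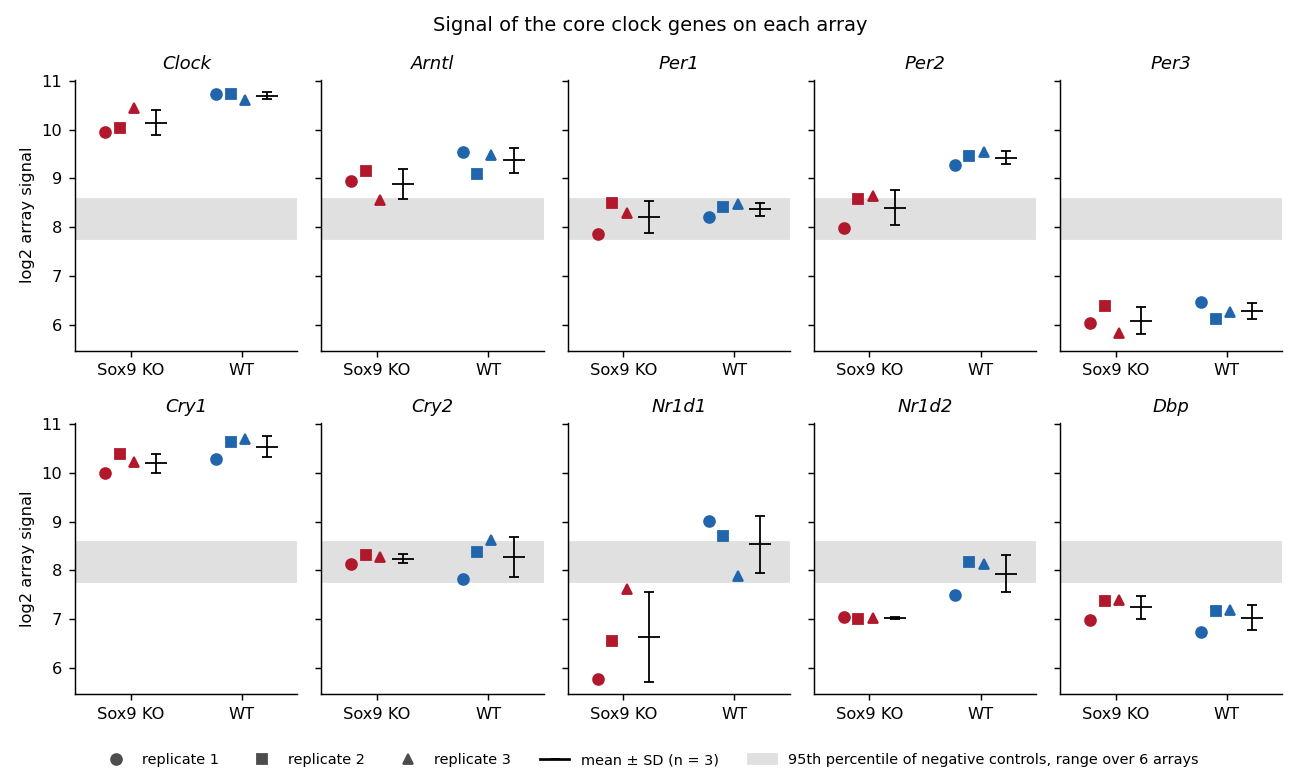
Log2 array signal of each core clock gene in Sox9 KO (red, left) and WT (blue, right) ER- luminal cells, with 1 point per animal, the mean ± SD (n = 3) beside the points, and the range of the 95th percentile of negative controls over the arrays in grey. Clock, Per2, Nr1d1 and Nr1d2 do not overlap between the genotypes, and Per3 and Dbp lie under the grey band on every array.

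Nr1d1 encodes REV-ERBα, a nuclear receptor that represses Arntl. Its signal was 5.77, 6.54 and 7.61 in Sox9 KO replicates 1, 2 and 3, against 9.01, 8.71 and 7.88 in WT replicates 1, 2 and 3. All Sox9 KO arrays lay below all WT arrays, with only 7.61 and 7.88 close to each other, and both groups were spread widely. The means were 6.64 ± 0.92 in Sox9 KO and 8.53 ± 0.59 in WT (SD, n = 3 each). The difference was -1.89 (SE 0.47, 95% interval -2.98 to -0.80, limma unadjusted p = 0.00407, adjusted p = 0.297). Every Sox9 KO array was below the 95th percentile of its negative controls and every WT array above it, and set against that percentile the signal was at least 1.44-fold lower in Sox9 KO. The percentile was 7.87 on WT replicate 3, so its 7.88 was barely above, and 7.75 on Sox9 KO replicate 3. This split by genotype therefore rests on narrow margins in replicate 3. Leaving out Sox9 KO replicate 1 gave -1.46, and leaving out Sox9 KO replicate 3 gave -2.38. The spread of Nr1d1 within the genotypes was larger than that of 98.0% of probe sets tested, and its standard error was the largest of the 10.

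Nr1d2 encodes REV-ERBβ, the paralogue with the same role. Its signal was 7.04, 7.00 and 7.03 in Sox9 KO cells, against 7.49, 8.17 and 8.12 in WT cells. The Sox9 KO animals were almost identical to each other, and WT replicate 1 lay between them and the other WT animals. The means were 7.02 ± 0.02 in Sox9 KO and 7.93 ± 0.38 in WT (SD, n = 3 each). The difference was -0.90 (SE 0.20, 95% interval -1.36 to -0.45, limma unadjusted p = 0.00196, adjusted p = 0.249). It lay above the negative control percentile on 1 WT array and on 0 Sox9 KO arrays, so no fold against background is given. Unlike Nr1d1, it barely depended on Sox9 KO replicate 1, without which the difference was -0.91.

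The reference places Nr1d1 and the thyroid hormone receptor gene Thra over each other for 1075 bases. Thra, chosen after its values were seen, was at 8.27, 8.13 and 8.87 in Sox9 KO cells, against 8.67, 8.54 and 8.23 in WT cells, a difference of -0.06. Where the probes lie within either gene is not known here, and a part of the overlap in the Nr1d1 signal was not tested.

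The 3 Per genes differed in how far apart the genotypes lay. Per2, the period protein gene whose loss disrupts behavioural rhythms in mice, was at 7.99, 8.58 and 8.63 in Sox9 KO cells, against 9.28, 9.45 and 9.54 in WT cells. The groups were clearly apart, with the highest Sox9 KO animal below the lowest WT animal by more than the whole range of the WT animals (0.26). The means were 8.40 ± 0.36 in Sox9 KO and 9.42 ± 0.13 in WT (SD, n = 3 each). The difference was -1.02 (SE 0.20, 95% interval -1.48 to -0.57), a 2.03-fold lower signal (limma unadjusted p = 0.000926, adjusted p = 0.199). It was above the negative control percentile on every WT array and on 2 of 3 Sox9 KO arrays, and it was -0.82 without Sox9 KO replicate 1.

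Per1, the paralogue that glucocorticoids and cyclic AMP induce quickly, was at 7.85, 8.49 and 8.29 in Sox9 KO cells, against 8.21, 8.42 and 8.47 in WT cells. The groups overlapped, only Sox9 KO replicate 1 lay below every WT array, and 2 arrays of each genotype were above the negative control percentile. The difference was -0.16 (SE 0.19, 95% interval -0.60 to 0.28, limma adjusted p = 0.845) and it was 0.023 without Sox9 KO replicate 1. Per3, the third paralogue, was at 6.03, 6.38 and 5.83 in Sox9 KO cells, against 6.46, 6.12 and 6.25 in WT cells. Its difference was -0.20 (SE 0.18, 95% interval -0.61 to 0.22, limma adjusted p = 0.783), and it was -0.17 without Sox9 KO replicate 1. Per3 lay below the negative control percentile on all 6 arrays, so a change of it may not have been measurable.

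Per2 and Per1 parted on each Sox9 KO array. Measured from the WT mean of each gene, the change of Per2 minus the change of Per1 was -0.92, -0.97 and -0.72 in Sox9 KO cells, against 0.01, -0.03 and 0.01 in WT cells. The WT animals agreed within 0.04 in this measure, and every Sox9 KO animal had Per2 lower relative to Per1 (mean -0.87, SD 0.13, n = 3). Per1 lay below the negative control percentile on replicate 1 of each genotype, and Per2 on Sox9 KO replicate 1. The values of these 2 arrays are therefore less sure. No such value is given against Per3, which was below that percentile on every array.

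**Figure D2:**
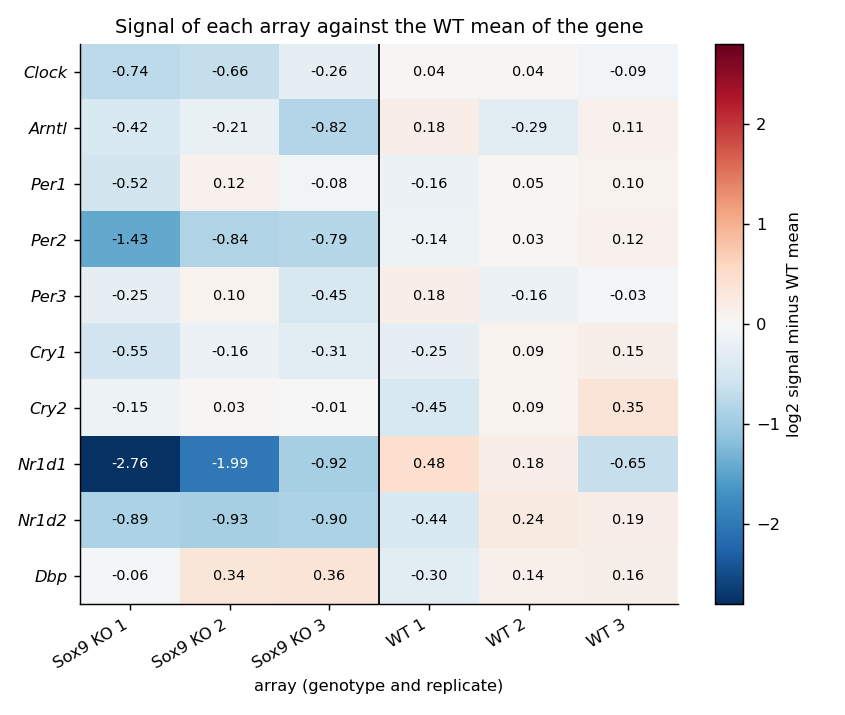
Log2 signal of each array minus the WT mean of the same gene, for the 10 core clock genes (rows) on the 3 Sox9 KO and 3 WT arrays (columns), with blue for lower and red for higher. Sox9 KO replicate 1 is below the WT mean for all 10 genes, and Nr1d1, Nr1d2, Per2, Clock, Arntl and Cry1 are below it on all 3 Sox9 KO arrays.

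The cryptochrome genes, whose proteins bind CLOCK and BMAL1 and are the stronger repressors of the pair, had groups that overlapped. Cry1 was at 9.99, 10.38 and 10.23 in Sox9 KO cells, against 10.29, 10.63 and 10.69 in WT cells. WT replicate 1 lay below Sox9 KO replicate 2, and the other WT animals lay above all Sox9 KO animals. The difference was -0.34 (SE 0.17, 95% interval -0.73 to 0.06, limma adjusted p = 0.596), and all arrays were above the negative control percentile. Without Sox9 KO replicate 1 the difference was -0.23.

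Cry2 was at 8.13, 8.31 and 8.27 in Sox9 KO cells, against 7.83, 8.37 and 8.63 in WT cells. Here the Sox9 KO animals lay inside the range of the WT animals, and the signal was above the negative control percentile on 3 Sox9 KO arrays and 1 WT array. The difference was -0.04 (SE 0.21, 95% interval -0.53 to 0.45, limma adjusted p = 0.975), and its sign turned when Sox9 KO replicate 1 (0.013), WT replicate 2 (0.0067) or WT replicate 3 (0.14) was left out. The interval still allows a change of Cry2 of about 0.5 on the log2 scale in either direction.

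Both activators had lower means in Sox9 KO cells, Arntl less surely than Clock. Clock, which encodes the DNA-binding partner of BMAL1 with histone acetyltransferase activity, was at 9.96, 10.04 and 10.44 in Sox9 KO cells, against 10.74, 10.74 and 10.61 in WT cells. The groups did not overlap, although Sox9 KO replicate 3 came close to the WT animals. The means were 10.15 ± 0.26 in Sox9 KO and 10.70 ± 0.08 in WT (SD, n = 3 each). The difference was -0.55 (SE 0.16, 95% interval -0.93 to -0.17), a 1.46-fold lower signal (limma unadjusted p = 0.00999, adjusted p = 0.378). Without Sox9 KO replicate 1 it was -0.46.

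Arntl, which encodes BMAL1, was at 8.95, 9.16 and 8.55 in Sox9 KO cells, against 9.55, 9.08 and 9.48 in WT cells. WT replicate 2 lay below Sox9 KO replicate 2, so the groups overlapped. The difference was -0.48 (SE 0.20, 95% interval -0.96 to -0.01, limma unadjusted p = 0.0463, adjusted p = 0.531). It stayed under an unadjusted 0.05 in 5 of 14 other settings, and without Sox9 KO replicate 3 it was -0.32 (unadjusted p = 0.143). Without Sox9 KO replicate 1 it was -0.515 (limma unadjusted p = 0.0643). Sox9 KO replicate 3 had the lowest Arntl signal and the highest Clock signal of its genotype, so the activators did not move together among the Sox9 KO animals. Both genes were above the negative control percentile on all 6 arrays. Arntl, the gene that REV-ERB proteins repress, had a lower mean in Sox9 KO cells, as did Nr1d1 and Nr1d2. These arrays do not measure proteins, and both REV-ERB signals were below the negative control percentile on every Sox9 KO array. A link between these differences was not tested.

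Dbp, the output factor of the PAR bZIP family, was the one gene with a higher mean in Sox9 KO cells. Its signal was 6.97, 7.37 and 7.39 in Sox9 KO cells, against 6.73, 7.17 and 7.19 in WT cells. The groups overlapped, and 2 of 3 Sox9 KO animals were above all WT animals. The difference was 0.21 (SE 0.19, 95% interval -0.22 to 0.65, limma adjusted p = 0.773). It was 0.063 without WT replicate 1 and 0.35 without Sox9 KO replicate 1. Dbp lay below the negative control percentile on all 6 arrays, and the reference places it over the neighbouring Sphk2 gene for 741 bases.

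Paralogues and partners were also compared for Cry1 and Cry2 and for Arntl and Clock, which were not below the negative control percentile throughout a genotype. The change of Cry1 minus that of Cry2 was -0.40, -0.19 and -0.30 in Sox9 KO cells, against 0.20, 0.00 and -0.20 in WT cells. The change of Arntl minus that of Clock was 0.32, 0.45 and -0.56 in Sox9 KO cells, against 0.14, -0.33 and 0.20 in WT cells. Both sets of values overlapped between the genotypes. These pairs, Per2 and Per1 included, were picked with the values known and are given with no test.

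**Figure D3:**
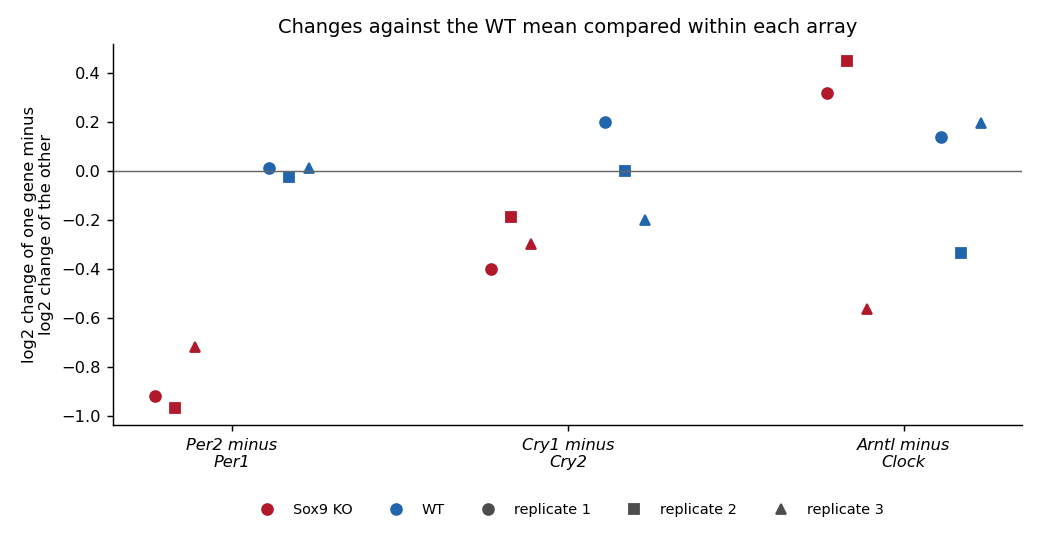
Log2 change of one clock gene minus the log2 change of another on the same array, each measured from its WT mean, in Sox9 KO (red, left) and WT (blue, right), with marker shapes for the replicates. Per2 minus Per1 is between -0.97 and -0.72 in Sox9 KO animals and within 0.03 of 0 in WT animals, while Cry1 minus Cry2 and Arntl minus Clock overlap.

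Other clock factors were taken as groups. Of 12 further loop factors listed, 11 were measured, 7 lower and 4 higher. The median difference was -0.12. None passed an adjusted p of 0.05 in limma, and at an unadjusted p under 0.05 4 were lower and 0 higher. Over all probe sets, 4.99% were lower and 4.28% higher at this p. Rora, the ROR receptor that activates Arntl through the sites REV-ERB proteins use, was at 7.50, 8.38 and 8.19 in Sox9 KO cells, against 8.50, 9.22 and 9.04 in WT cells. These groups did not overlap (difference -0.90, SE 0.27, adjusted p = 0.392). Of its 3 probe sets, the other two, which are dimmer, differed by -0.90 and -0.13. Bhlhe40 (DEC1), which competes for E-boxes, was at 9.05, 9.21 and 9.23 in Sox9 KO cells, against 9.51, 9.41 and 10.10 in WT cells (difference -0.51, SE 0.20, adjusted p = 0.491). Its groups did not overlap either, and it was bright on every array. Over all probe sets, 7.3% did not overlap in the lower direction.

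The remaining 2 of these 4 factors were dim. Ciart (CHRONO), a repressor of CLOCK and BMAL1, differed by -0.55 (SE 0.17, adjusted p = 0.404) at signals below the negative control percentile on every array. Hlf, a PAR bZIP factor like Dbp, differed by -0.78 (SE 0.27, adjusted p = 0.441), above that percentile on 1 WT array alone. Tef, the third PAR bZIP factor, differed by -0.06 (SE 0.15), and Nfil3, which opposes these factors at D-boxes, by 0.09 (SE 0.30). Tef lay below that percentile on every array, so a change of it may not have been measurable, and Nfil3 lay above it on every array. Npas2, which can stand in for CLOCK, was at 7.52, 8.27 and 6.47 in Sox9 KO cells, against 7.67, 7.38 and 7.58 in WT cells. Its Sox9 KO values lay on both sides of the WT values, and Npas2 was above the negative control percentile on 1 Sox9 KO array alone.

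Genes that act on clock proteins formed another list. Of 10 kinases, ubiquitin ligases and related genes listed, 8 were measured, 6 lower and 2 higher, and the median difference was -0.06. At an unadjusted p under 0.05, 1 was lower and 0 were higher, against 4.99% and 4.28% of all probe sets. Fbxw11 (β-TrCP2), a ligase subunit that marks PER proteins for breakdown, was at 8.91, 8.96 and 8.71 in Sox9 KO cells, against 9.48, 9.34 and 9.67 in WT cells. Its groups did not overlap (difference -0.64, SE 0.15, unadjusted p = 0.00275, adjusted p = 0.276 in limma). The casein kinase genes Csnk1d and Csnk1e, whose products phosphorylate PER, differed by -0.01 (95% interval -0.31 to 0.29) and -0.06 (95% interval -0.46 to 0.34). The others named by the rule, Gsk3b (0.24, SE 0.19), Btrc (0.21, SE 0.22) and Usp7 (-0.11, SE 0.14), did not pass. Btrc lay below the negative control percentile on every array.

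Of 10 genes listed as outputs under clock control, 9 were measured, 7 lower and 2 higher, and the median difference was -0.05. Lonrf3 differed by -0.85 (SE 0.24, adjusted p = 0.367) below the negative control percentile on every array. Dtx4 was at 8.08, 9.56 and 7.53 in Sox9 KO cells, against 6.99, 7.28 and 7.73 in WT cells (difference 1.06, SE 0.48, adjusted p = 0.561), with most of it from Sox9 KO replicate 2. Coq10b (-0.24, SE 0.18), Klf9 (-0.09, SE 0.18) and Wee1 (-0.15, SE 0.32), the kinase that delays mitosis, were not under an unadjusted p of 0.05. Klf9 was above the negative control percentile on 1 array of each genotype.

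Of 10 genes of the glucocorticoid and cyclic AMP pathways that set the clock, 9 were measured, 6 lower and 3 higher, and the median difference was -0.19. Tsc22d3 (GILZ), a glucocorticoid target, was at 9.05, 9.10 and 8.84 in Sox9 KO cells, against 7.79, 7.83 and 8.84 in WT cells (difference 0.84, SE 0.28, adjusted p = 0.416). WT replicate 3 matched Sox9 KO replicate 3 in it. Fkbp5, another glucocorticoid target, differed by -0.22 (SE 0.13), the glucocorticoid receptor gene Nr3c1 by -0.24 (SE 0.16) and Sik1, a kinase that limits resetting of the clock, by -0.33 (SE 0.20). Nr3c1 was above the negative control percentile on 1 WT array alone. Sgk1 and Zbtb16, glucocorticoid targets also on this list, differed by -0.05 (SE 0.14) and 0.27 (SE 0.32). The part of the hormone in the clock differences was not tested.

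**Figure D4:**
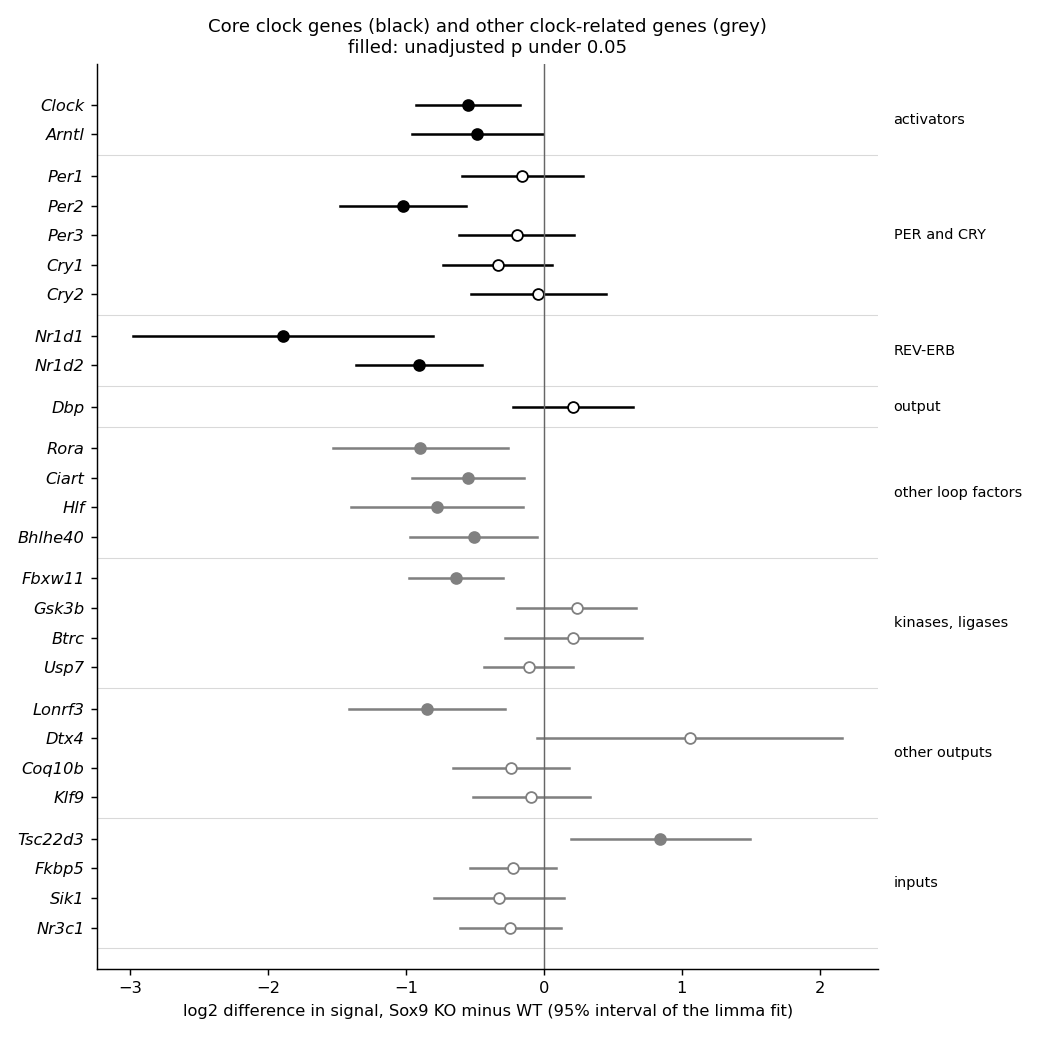
Log2 difference in signal, Sox9 KO minus WT, with the 95% interval of the limma fit, for the 10 core clock genes (black) and for 4 genes of each further list (grey, the smallest unadjusted p), filled where the unadjusted p is under 0.05. The core genes under it (Clock, Arntl, Per2, Nr1d1 and Nr1d2) all lie left of 0, and no gene shown passed the adjusted threshold.

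Marker lists were read on the same arrays, and none of the genes described next passed an adjusted p of 0.05 in limma. The background for the counts on these lists is that of all probe sets, 4.99% lower and 4.28% higher at an unadjusted p under 0.05. Cell cycle genes had a higher mean in 9 of 9 measured, of which 1 (Mcm6) was under an unadjusted p of 0.05, and the others were below the negative control percentile on every WT array. Their mean level was 6.59 to 10.08 in Sox9 KO cells and 6.07 to 7.25 in WT cells, highest in replicate 1 of each genotype. Relative to the WT mean it was 3.59, 1.11 and 0.11 in Sox9 KO replicates 1, 2 and 3, whose Nr1d1 signals were -2.76, -1.99 and -0.92 from theirs. In WT, replicate 1 had both the highest cell cycle level (0.77) and the highest Nr1d1 signal (0.48). Nr1d2 was at -0.89, -0.93 and -0.90 on the Sox9 KO arrays. Both REV-ERB genes lay below the negative control percentile on every Sox9 KO array, so a gradient there may not have been measurable. A relation to the cell cycle level was not tested. A setting without replicate 1 of both genotypes was chosen after seeing the data. In it Nr1d1 differed by -1.22, Nr1d2 by -1.13, Per2 by -0.89 and Clock by -0.44. Nr1d1, Nr1d2 and Per2 were under an unadjusted p of 0.05 in limma, as were 1673 of all 22206 probe sets.

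Immediate-early genes, which respond to stimuli within minutes as Per1 does, had a lower mean in 8 of 10 (3 under an unadjusted p of 0.05), with a mean level of 9.32 to 10.30 in Sox9 KO cells and 10.23 to 10.48 in WT cells. Relative to the WT mean they were -1.05, -0.13 and -0.08 in the Sox9 KO replicates, where Per1 was -0.52, 0.12 and -0.08. Basal markers had a higher mean in 4 of 5, with a mean level of 7.52 to 7.86 in Sox9 KO cells and 6.18 to 7.16 in WT cells. Of them 2 were under an unadjusted p of 0.05 (Krt14, 2.57, limma adjusted p = 0.196, and Trp63, 1.99, limma adjusted p = 0.199). The groups did not overlap for either gene, and Trp63 was below the negative control percentile on all WT arrays. Krt5, Acta2 and Myh11 lay below it on all arrays. ER+ luminal markers had a lower mean in 2 of 3 measured (0 under an unadjusted p of 0.05), at 5.82 to 6.10 in Sox9 KO cells and 5.77 to 7.70 in WT cells, with the top value from WT replicate 3. That animal also had the lowest Nr1d1 signal of its genotype. Immune and endothelial markers were below the negative control percentile on every array. Fibroblast markers had mean levels of 5.995 to 7.49 in Sox9 KO cells and 6.19 to 6.84 in WT cells, and adipocyte markers 5.08 to 5.70 in Sox9 KO cells and 5.31 to 5.98 in WT cells. These means hide brighter genes. Dcn was at 6.76, 7.72 and 10.56 in Sox9 KO cells, against 9.60, 7.72 and 7.73 in WT cells. Fabp4 was at 7.21, 8.15 and 10.11 in Sox9 KO cells, against 10.91, 7.47 and 9.20 in WT cells. Both were highest on Sox9 KO replicate 3 and WT replicate 1, above the negative control percentile. The other genes of these lists lay below it, except Col1a1 on 1 Sox9 KO array. Luminal markers had a lower mean in 4 of 5, at 12.36 to 12.54 in Sox9 KO cells and 12.59 to 12.67 in WT cells, and 1 of them was under an unadjusted p of 0.05 (Epcam, -0.42, limma adjusted p = 0.416). ER- luminal markers had a lower mean in 3 of 5, at 10.44 to 10.62 in Sox9 KO cells and 10.82 to 10.97 in WT cells, and 2 were under it (Itga2, -0.98, limma adjusted p = 0.196, and Aldh1a3, -1.08, limma adjusted p = 0.392). On both lists every Sox9 KO array had a lower mean level than every WT array, as for Clock, Per2, Nr1d1 and Nr1d2. Among the ER- luminal markers, however, only Itga2 and Aldh1a3 had groups that did not overlap. The groups overlapped for Kit (0.21), Elf5 (0.0067) and Cd14 (-0.10). On the basal list every Sox9 KO array had a higher mean level than every WT array. The part of these groups in the clock differences was not tested.

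**Figure D5:**
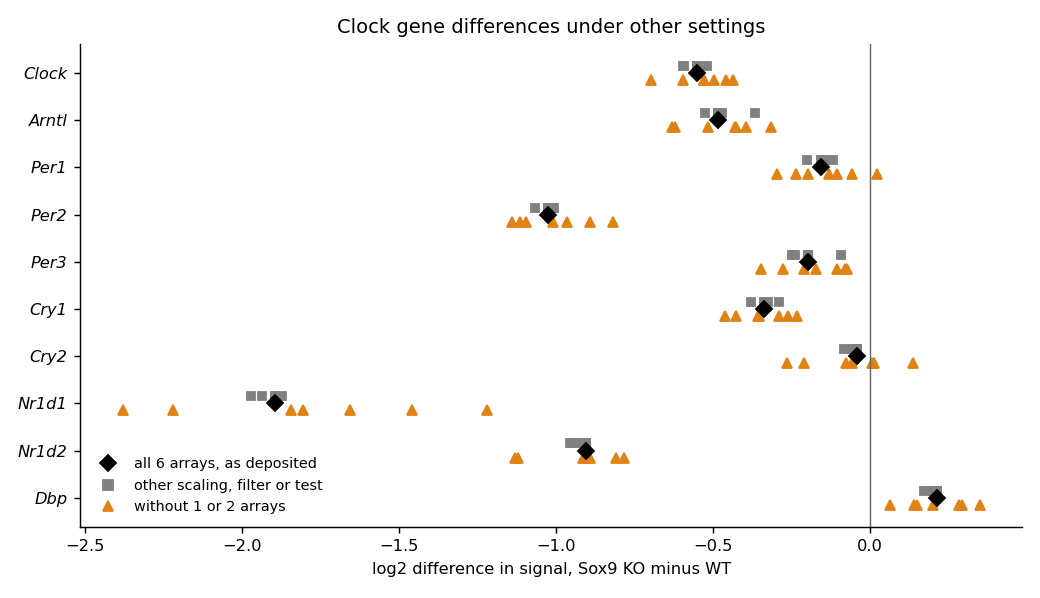
Log2 difference in signal, Sox9 KO minus WT, of each core clock gene with all arrays as deposited (diamond), under another scaling, filter or test (squares), and without 1 or 2 arrays (triangles). Per2, Nr1d1, Nr1d2, Clock and Arntl stay below 0 under every setting shown, Per1 and Cry2 cross 0, and Nr1d1 ranges from -2.38 to -1.22.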

How the data were processed

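Total RNA of sorted ER- luminal cells was hybridized to Affymetrix Clariom S Pico mouse arrays, 3 Sox9 KO and 3 WT. The authors deposited log2 signals with 2 decimals, made with Expression Console and, per the labels, Transcriptome Analysis Console 4.0.1. How they normalized and summarized the probes is not given in the sources used here. The log2 scale was read from the range of the values. Having 3 arrays a genotype limits the precision.

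Of 28846 probe sets, 6640 array controls were left out and 22206 were tested. Gene symbols came from the annotation of the platform, brought up to date with RefSeq (GRCm38.p6), and 19572 probe sets had one. The test was that of limma 3.58.1 (R 4.3.3), lmFit followed by eBayes, two-sided and without covariates. P values were adjusted by Benjamini-Hochberg over all 22206 probe sets. Each difference is Sox9 KO minus WT, given with its standard error (SE) or 95% interval from that fit. Where a gene had several probe sets the brightest was used. The fit was tested on simulated data, in which 200 probe sets were changed. Of changes of 1 on the log2 scale, 54% reached a limma adjusted p under 0.05, with 8 false calls. Of changes of 2, 99% did, with 12 false calls. Named genes were Sox9, the 10 clock genes, the 4 genes with the smallest p of each further list, and genes whose role is described. The members and lists were chosen with earlier results of these data known. Further settings were another scaling, a filter on dim probe sets, other variance models, array weights, a replicate block, the methods' t-test and fewer arrays.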

Additional observations from a re-analysis of the deposited data

How the results depend on the processing

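The 10 clock genes were recomputed under 14 other settings, 13 planned and 1 chosen after seeing the data (without replicate 1 of both genotypes). Clock, Arntl, Per2, Per3, Cry1, Nr1d1 and Nr1d2 stayed lower and Dbp stayed higher in Sox9 KO under all 14. Per1 ranged from -0.30 to 0.023 and Cry2 from -0.26 to 0.14 when single arrays were left out, and their signs turned (Per1 0.023 and Cry2 0.013 without Sox9 KO replicate 1, Cry2 0.0067 without WT replicate 2 and 0.14 without WT replicate 3). An unadjusted p under 0.05 was kept by Per2, Nr1d1 and Nr1d2 under all 14, by Clock under 13 and by Arntl under 5. The number of clock genes under it was 4 to 5 without single arrays, 4 with the replicate block and 3 without replicate 1 of both genotypes. Of all 22206 probe sets, 1250 to 2789 were under it without single arrays, 2194 with the replicate block and 1673 without replicate 1 of both genotypes. No clock gene passed the adjusted threshold under any of them, where the lowest adjusted p was 0.101 for Nr1d1. Over all probe sets, 2 passed it in limma, against 0 to 20 without single arrays, 8 without replicate 1 of both genotypes, 0 with the replicate block (2194 at an unadjusted p under 0.05) and 0 with the methods' t-test after Benjamini-Hochberg adjustment (1722 at its own threshold). Leaving out Sox9 KO replicate 1, 2 or 3 gave 11, 1 or 20, and leaving out any one WT array gave 0. Whether the replicate numbers pair the animals is not known here. Deviations of same-numbered arrays correlated at 0.12, -0.03 and 0.03 over all probe sets, which cannot settle it for single genes or for a shared batch. Averaging several probe sets gave no value, because each clock gene had 1. Without single arrays Dbp ranged from 0.063 to 0.35. Signal over background limits Per3 and Dbp on all arrays, Nr1d1 and Nr1d2 on all Sox9 KO arrays, and Nr1d2, Cry2, Per1 and Per2 on 1 or 2 arrays of a genotype.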
